A study of Mus musculus with 80 samples.

Results

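The mitochondrial carriers (gene symbols beginning Slc25a) and the genes of the mitochondrial protein import machinery (symbols beginning Timm or Tomm) were followed in mouse kidney over 4 age groups and both sexes. Members were the spotted clones of both filter sets that the platform table ties to exactly 1 symbol with one of these beginnings. There were 41 such clones of 34 genes, out of 9663 clones with 1 symbol and 16896 clones in all. Of these, 16 clones stood for 16 carrier genes and 25 clones for 18 import genes. The rule itself used names only and no measured value, but it was chosen with earlier results of these data known.

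The animals were C57BL/6 mice, an inbred laboratory strain, given regular feed without restriction until they were killed. The 40 kidneys came from 20 males and 20 females, with 5 mice of each sex aged 17 to 44, 169 to 194, 476 to 499 and 704 to 743 days. Total RNA of each kidney was copied into radioactively labelled cDNA and hybridised to 2 nylon filters that carry different clones, so each mouse counted once for every clone. No mouse carried an engineered allele or received an agent, as far as the labels state. Some features of the groups limit them: the youngest held 5 mice of 17 to 21 days beside 5 older ones, the description of 1 male of 714 days named another mouse than its title, all mice were of one strain, and whole kidney was measured. In whole tissue, fewer cells of a type and less RNA per cell cannot be told apart.

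Most of the proteins of a mitochondrion are made in the cytosol and must be imported. The TOM complex forms the entry gate of the outer membrane, the TIM23 complex passes on proteins with a cleavable leader sequence, and small TIM chaperones hand carriers to the TIM22 complex, which inserts them into the inner membrane. The carriers of the Slc25 family are themselves brought in by that last route, and they exchange phosphate, nucleotides, organic acids, amino acids, acylcarnitines and cofactors across the inner membrane. The tubules of the kidney are rich in mitochondria, which supply the ATP for reabsorption.

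No carrier or import gene was called as different between the sexes or between any ages. Every one of the 6 comparisons gave 0 of 41 member clones at an adjusted p under 0.05 (limma, Benjamini-Hochberg over all 16896 clones). Over all clones the called share was 0.107% for male minus female, and it was 0% for 169 to 194 minus 17 to 44 days, for 704 to 743 minus 169 to 194 days, for the age slope, for any age difference and for sex by age (an F test of whether the sexes differed unequally across the age groups). A count of 0 among the members was therefore near the background in each comparison. The 2 comparisons of age groups share the mice of 169 to 194 days. The smallest adjusted p of any member was 0.982 for sex, 0.933 for the step from 17 to 44 to 169 to 194 days and 1.00 for the step from 169 to 194 to 704 to 743 days. It was 0.937 for the slope and 1.00 for both F tests, that of any age difference and that of sex by age.

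Unadjusted p-values gave the same picture. At an unadjusted p under 0.05, 1 member clone of 41 (2.44%) passed for sex, against 4.48% of all clones. The figures were 2 members (4.88%) against 5.08% for the early step, 1 member against 2.36% for the late step, 2 members against 5.2% for the slope, 2 members against 3.39% for any age difference and 1 member against 3.23% for sex by age. A test with no true difference would put 2.05 of 41 clones there. These small counts moved with the processing: with single mice left out, any age difference gave 0 to 4 members and sex by age 0 to 2, and the slope gave 4 with ordinary least squares.

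Values are normalized z scores, that is, distances from the mean of an array in units of its SD, and their scale before that step is unknown. A difference is therefore given in array SDs and not as a fold. For the 34 genes, each represented by its brightest clone, the median male minus female difference was -0.000678, with 17 genes higher in males and 17 lower, and the median over all clones was -0.00117. From 17 to 44 to 169 to 194 days the median difference was 0.0198, with 22 genes higher and 12 lower at the later age, against 0.0022 over all clones. From 169 to 194 to 704 to 743 days it was 0.00423, with 18 higher and 16 lower, against 0.000988. The median slope with age was 0.00897 array SD per year, with 19 genes above and 15 below zero, against 0.000255. Without female 17 to 44 days replicate 1 the median slope was 0.00158, without male 704 to 743 days replicate 1 it was 0.0164, and without the mice of 17 to 21 days it was 0.000262. All of these medians were below 0.02 array SD in size, and they were not tested. The median of the genes was also taken in each single couple of mice that share a replicate number. Its SD was 0.0578 over the 20 couples for sex. That SD was 0.0297 for the early step and 0.0405 for the late step, over 10 couples each. It was 0.0163 for slopes fitted within mice of one sex and one replicate number. These SDs describe single couples or sets of mice and are not standard errors of the medians above. The standard error of a single member clone, which is not that of a median over genes, had a median of 0.0540 for sex and 0.0764 for either step.

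The 95% intervals show how large a difference these data could have missed. For sex, the intervals of all 34 genes lay within 0.3 array SD of zero on either side, and those of 30 genes within 0.2, and the widest reach was 0.273, for Tomm40. For the early step 29 genes lay within 0.3 and 16 within 0.2, and for the late step 31 and 17. Timm8a2, one of the small TIM chaperones, had the widest reach in both steps, 0.432 and 0.448. All 34 slopes lay within 0.2 array SD per year.

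**Figure D1:**
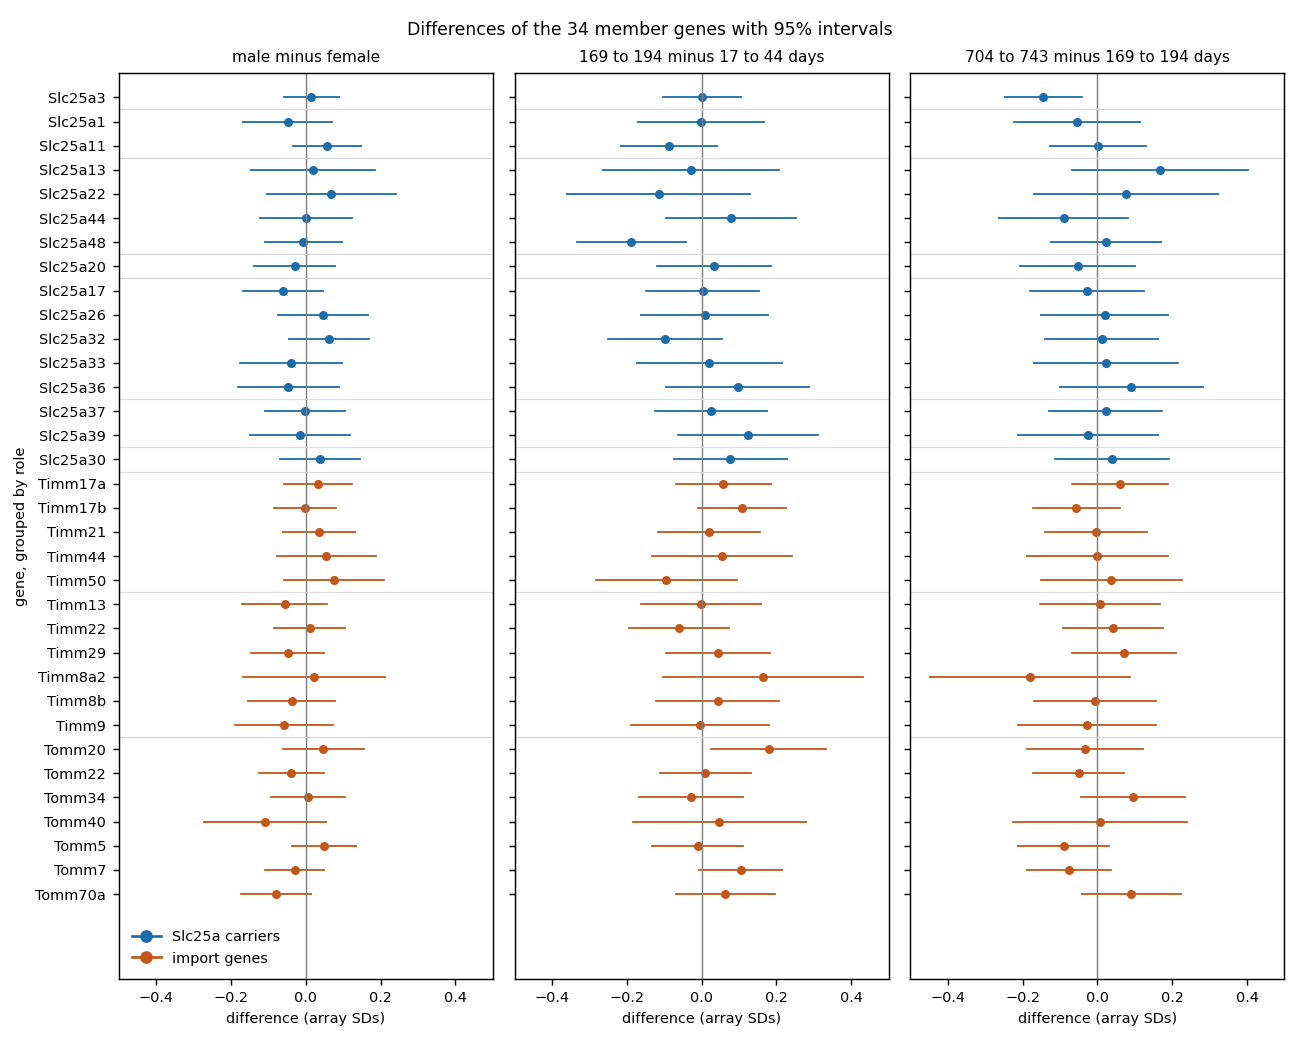
The difference of each of the 34 genes (points, in array SDs, with 95% limma intervals as lines) is plotted for male minus female, 169 to 194 minus 17 to 44 days and 704 to 743 minus 169 to 194 days, with carriers in blue and import genes in orange, each grouped by role. Nearly all intervals span zero, and those that do not (Slc25a48 and Tomm20 in the early step, Slc25a3 in the late step) did not pass the adjusted test.

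Among the carriers of phosphate and adenine nucleotides, only Slc25a3 had a member clone; no clone was tied to Slc25a4 or Slc25a5, the ADP/ATP carriers, alone. Slc25a3 brings phosphate into the matrix for ATP synthesis. Its values in the 10 mice of each age group had a low, a median and a high of 0.0993, 0.238 and 0.530 at 17 to 44 days. They were 0.118, 0.241 and 0.533 at 169 to 194 days, 0.0790, 0.196 and 0.312 at 476 to 499 days, and -0.0336, 0.120 and 0.227 at 704 to 743 days. The oldest mice had the lowest median and the lowest maximum, but their range overlapped that of every other group. The difference between 704 to 743 and 169 to 194 days was -0.145 ± 0.0511 (SE, unadjusted p = 0.00730, limma adjusted p = 1.00), with the older mouse lower in 8 of 10 couples of one sex and one round. Such couples, taken from mice that share a round number, are counted here as a description only, and the tests did not use them. In the youngest group the male and the female of a couple were 2 to 26 days apart in age, so sex and age cannot be told apart within those couples. The slope was -0.0744 ± 0.0239 array SD per year (unadjusted p = 0.00330, adjusted p = 0.937), the smallest unadjusted p of any member in any comparison. The early step of Slc25a3 was 0.000925 ± 0.0511 and the sex difference 0.0147 ± 0.0361. It also had the smallest spread within groups of all member clones, an SD of 0.102, and the largest share of variance between age groups, 28.3%. Without the 5 mice that had an outlying array, its slope was -0.0466.

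The carriers of di- and tricarboxylates were Slc25a1, which exports citrate, and Slc25a11, which exchanges oxoglutarate for malate. Slc25a11 had male values of 0.0732 to 0.591 with a median of 0.465, and female values of 0.0660 to 0.729 with a median of 0.364. The sexes overlapped throughout, and the difference was 0.0563 ± 0.0451 (adjusted p = 0.982, male higher in 13 of 20 couples), and 0.0255 without the mice of 17 to 21 days. Both genes were lower at 169 to 194 than at 17 to 44 days, by -0.00116 for Slc25a1 and -0.0871 ± 0.0637 for Slc25a11 (adjusted p = 0.950), and neither passed. The Slc25a11 step was -0.0492 without female 17 to 44 days replicate 4. Slc25a10, the dicarboxylate carrier that is abundant in kidney, was named only on a clone shared with Kpna1, which was left out.

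The 4 carriers placed with the amino acid carriers were Slc25a13, Slc25a22, Slc25a44 and Slc25a48. Slc25a48, known as a choline carrier and grouped here by family resemblance, had values of 0.0838 to 0.879 (median 0.277) at 17 to 44 days. They ran from -0.0372 to 0.466 (median 0.177) at 169 to 194 days, from -0.0271 to 0.448 (median 0.206) at 476 to 499 days and from 0.0411 to 0.335 (median 0.182) at 704 to 743 days. The highest values were in the youngest group, and the other 3 groups had nearly the same centre. The early step was -0.188 ± 0.0724 (unadjusted p = 0.0132, adjusted p = 0.933), higher at the later age in 3 of 10 couples. It was -0.129 without the male of 43 days in round 1, the mouse with 0.879, and -0.0847 without the 5 mice with an outlying array.

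Slc25a13, the aspartate and glutamate exchanger of the malate and aspartate shuttle, ran from 0.853 to 1.68 (median 1.32) at 17 to 44 days and from 0.729 to 1.61 (median 1.20) at 169 to 194 days. It ran from 0.551 to 1.53 (median 1.22) at 476 to 499 days and from 1.14 to 1.68 (median 1.36) at 704 to 743 days. The oldest mice lacked the low values seen in the other groups, and the ranges overlapped. The late step was 0.167 ± 0.116 (adjusted p = 1.00, higher in 7 of 10 couples), and 0.273 without the mice with an outlying array. Slc25a22, a glutamate carrier, and Slc25a44, which carries branched-chain amino acids, differed by -0.115 and 0.0795 in the early step and by 0.0763 and -0.0905 in the late step, and neither passed.

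Slc25a20 exchanges acylcarnitines for carnitine and so feeds fatty acid oxidation. Its median was 0.361 at 17 to 44 days, 0.382 at 169 to 194 days, 0.409 at 476 to 499 days and 0.380 at 704 to 743 days. Single mice reached from -0.248 to 0.718, both of them males. The early step was 0.0335 ± 0.0757, the late step -0.0528 ± 0.0757 and the sex difference -0.0292 ± 0.0535 (adjusted p = 0.972, 1.00 and 0.984).

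Of the 5 carriers of cofactors and nucleotides, Slc25a26 carries S-adenosylmethionine, Slc25a33 and Slc25a36 carry pyrimidine nucleotides, Slc25a17 carries cofactors into peroxisomes and Slc25a32 carries folate or FAD. Slc25a32 gave the smallest sex by age p of any member (unadjusted p = 0.0492, adjusted p = 1.00). Its male minus female difference was 0.236 ± 0.106 at 17 to 44 days and 0.159 at 169 to 194 days. It was -0.173 at 476 to 499 days and 0.0226 at 704 to 743 days. At 17 to 44 days the males ran from -0.405 to -0.0560 and the females from -0.731 to -0.375, so that the sexes overlapped narrowly. The highest of these males, at -0.0560, was 43 days old, and the female of its round was 17 days old. Female 169 to 194 days replicate 5 had -1.08, the lowest value of this gene. The early step of Slc25a32 was -0.0980 ± 0.0750, but -0.0365 without that female and 0.00815 without the mice with an outlying array. Its sex difference of 0.0611 ± 0.0530 was 0.0304 without that female.

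Slc25a17 ran from -1.10 to -0.439 in males and from -0.968 to -0.318 in females, with medians of -0.555 and -0.548. The sex difference was -0.0614 ± 0.0532 (adjusted p = 0.982, male higher in 7 of 20 couples). The lowest male and the lowest female were the mice of 743 and 716 days in the same round. Without that male the sex difference was -0.0364, and without the mice with an outlying array it was -0.0204. Over all 5 genes of this group, 2 were higher in males and 3 lower, 4 were higher in the early step and 4 in the late step, and none passed.

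Slc25a37, the iron carrier mitoferrin-1, and Slc25a39, which carries glutathione, differed by 0.0251 and 0.124 in the early step and by 0.0219 and -0.0248 in the late step. Slc25a39 had the largest share of variance between rounds of arrays of any member, 56.0%. Slc25a30, named the kidney mitochondrial carrier protein and related to the uncoupling proteins, ran from -0.663 to -0.0990 (median -0.214) at 17 to 44 days and from -0.585 to 0.0741 (median -0.210) at 169 to 194 days. It ran from -0.247 to 0.189 (median -0.0673) at 476 to 499 days and from -0.303 to 0.0884 (median -0.181) at 704 to 743 days. The groups overlapped, with the highest median in the third. Its slope was 0.0710 ± 0.0371 array SD per year (unadjusted p = 0.0623, adjusted p = 0.937).

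**Figure D2:**
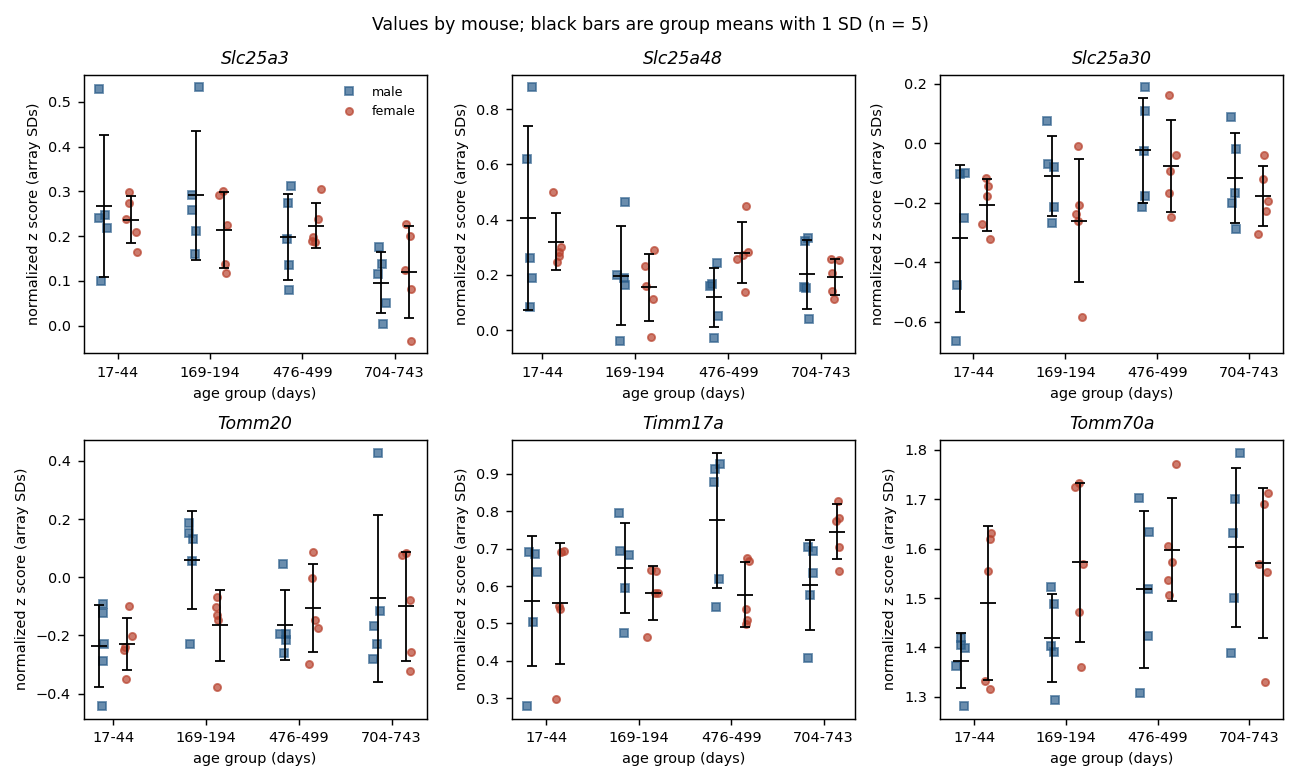
Normalized z scores (array SDs) of 6 member genes are plotted for each mouse by age group in days, males as blue squares and females as red circles, with group means and 1 SD in black (n = 5). In each panel the age groups overlap; Slc25a3 has its lowest median, 0.120, at 704 to 743 days and Slc25a48 its highest, 0.277, at 17 to 44 days.

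The TOM complex was measured through Tomm5 and Tomm7, small subunits, Tomm20, Tomm22 and Tomm70a, receptors, Tomm40, the channel, and Tomm34, a cytosolic factor. Tomm70a, which receives carriers from cytosolic chaperones, ran from 1.28 to 1.63 (median 1.40) at 17 to 44 days and from 1.29 to 1.73 (median 1.48) at 169 to 194 days. It ran from 1.31 to 1.77 (median 1.55) at 476 to 499 days and from 1.33 to 1.79 (median 1.60) at 704 to 743 days. The 4 medians stood in order of age, and the ranges overlapped almost wholly. The slope was 0.0797 ± 0.0303 array SD per year (unadjusted p = 0.0116, adjusted p = 0.937), and 0.0232 ± 0.0426 for the second Tomm70a clone.

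Tomm20, the receptor for leader sequences, was spotted 4 times. Its brightest clone ran from -0.442 to -0.0935 (median -0.235) at 17 to 44 days and from -0.378 to 0.187 (median -0.0851) at 169 to 194 days. The medians were -0.185 and -0.142 in the third and the fourth age group, and the ranges overlapped. The early step was 0.179 ± 0.0764 (unadjusted p = 0.0242, adjusted p = 0.933, higher in 8 of 10 couples). The other 3 clones gave -0.0221, -0.149 and 0.0266.

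Tomm40, the pore of the complex, ran from -0.932 to -0.106 in males (median -0.667) and from -0.888 to 0.570 in females (median -0.532). The sex difference of -0.109 ± 0.0811 (adjusted p = 0.982) was the largest in size of the 34 genes, and it was -0.0474 without female 704 to 743 days replicate 1, the mouse with 0.570. Tomm7 had a median of 1.35 at 17 to 44 days and 1.42 at 169 to 194 days, and its early step was 0.104 ± 0.0554 (adjusted p = 0.933, higher in 7 of 10 couples). That step was 0.175 without the mice of 17 to 21 days and 0.0673 with array weights.

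Tomm5 had medians of 0.104, 0.144, 0.0905 and 0.0559 from the youngest to the oldest group. Its late step was -0.0901 ± 0.0603 and its slope -0.0551 ± 0.0274 (unadjusted p = 0.0502, adjusted p = 0.937). Tomm34 differed by 0.0947 ± 0.0690 in the late step (adjusted p = 1.00), from a median of -0.0800 at 169 to 194 days to one of -0.00287 at 704 to 743 days, and by 0.0601 without female 169 to 194 days replicate 2. Over the 7 TOM genes, 3 were higher in males and 4 lower, 5 were higher and 2 lower in the early step, and 3 were higher and 4 lower in the late step.

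The TIM23 channel and its motor were measured through Timm17a and Timm17b, channel subunits, Timm21, which docks the complex to its partners, Timm44, which tethers the motor, and Timm50, the receptor that meets proteins from the TOM complex. Timm23, the gene of the complex's namesake, had no member clone. Timm17b ran from 0.568 to 0.953 (median 0.800) at 17 to 44 days and from 0.729 to 1.04 (median 0.895) at 169 to 194 days. It ran from 0.867 to 1.19 (median 0.942) at 476 to 499 days and from 0.664 to 1.11 (median 0.835) at 704 to 743 days. The early step was 0.108 ± 0.0581 (unadjusted p = 0.0705, adjusted p = 0.933), higher in 9 of 10 couples, and the groups overlapped.

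Timm17a had male values of 0.543 to 0.926 and female values of 0.497 to 0.674 at 476 to 499 days, and male values of 0.409 to 0.705 and female values of 0.639 to 0.829 at 704 to 743 days. Males had the higher median in the first of these groups (0.879 against 0.539) and females in the second (0.774 against 0.636). The differences were 0.199 ± 0.0895 and -0.142 ± 0.0895, and the sex by age test did not pass (unadjusted p = 0.0737, adjusted p = 1.00). Its slope was 0.0612 ± 0.0315 (adjusted p = 0.937), and 0.0398 without the mice with an outlying array. Timm50 had 2 clones, and the dimmer lay at percentile 3.61 of brightness in its set, among the dimmest 25%. This dimmer clone gave the one unadjusted p under 0.05 for sex. Its males ran from -1.77 to -1.39 and its females from -2.04 to -1.31, with medians of -1.59 and -1.72. The difference was 0.138 ± 0.0543 (unadjusted p = 0.0150, adjusted p = 0.982, male higher in 13 of 20 couples). The brighter Timm50 clone gave 0.0761 ± 0.0658, but 0.0404 without male 17 to 44 days replicate 5, 0.0282 without the mice with an outlying array and 0.125 without the mice of 17 to 21 days. Over the 5 genes of the complex, 4 were higher in males and 1 lower, 4 were higher and 1 lower in the early step and 2 were higher and 3 lower in the late step.

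The carrier pathway of the inner membrane was measured through Timm22, its channel, Timm29, a subunit of that complex, and the chaperones Timm8a2, Timm8b, Timm9 and Timm13. Their sex differences ran from -0.0584 for Timm9 to 0.0223 for Timm8a2, with 2 genes higher in males and 4 lower. In the early step they ran from -0.0603 for Timm22 to 0.164 for Timm8a2, and in the late step from -0.180 for Timm8a2 to 0.0700 for Timm29. Each step had 3 genes higher and 3 lower, and none passed. Timm8b had medians of 0.504, 0.559, 0.587 and 0.538 from the youngest to the oldest group, with single mice as low as 0.0595 and as high as 0.714. Its early step was 0.0425 ± 0.0810 and its late step -0.00676 ± 0.0810 (adjusted p = 0.964 and 1.00).

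The clones of genes that were spotted more than once did not give one pattern per gene. There were 5 such genes with 12 clones: Timm13, Timm50, Tomm20, Tomm22 and Tomm70a. The 95% interval of the early step was 0.0246 to 0.334 for the brightest Tomm20 clone (spot 4146) and -0.318 to 0.0199 for another (spot 11253), so that the intervals did not meet. Spot 4146 lay at percentile 46.8 of brightness in its set and spot 11253 at 22.2, among the dimmest 25%. Tomm20 spot 15218, Tomm22 spot 9352 and Timm50 spot 7633 were also among the dimmest 25%. The dimmer clones of Tomm70a and Timm13, and Tomm20 spot 1305, were not. For sex, the 2 Tomm70a clones differed in sign, at -0.0795 ± 0.0458 and 0.100 ± 0.0616. So did the 2 clones of Timm13, at -0.0567 ± 0.0563 and 0.0612 ± 0.0478, and those of Tomm22, at -0.0387 ± 0.0427 and 0.0270 ± 0.0402. The 95% intervals of all these sex differences spanned zero, so the signs alone do not separate the clones. Over the 40 mice, the correlation between clones of one gene ran from -0.374 to 0.441 with a median of -0.119, over 10 pairs.

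The pair that passed a permutation test after Benjamini-Hochberg adjustment over the 10 pairs was Tomm20 spots 1305 and 15218 (Pearson r = 0.441, permutation p = 0.00443, adjusted p = 0.0443; Spearman rho = 0.448, permutation p = 0.00386, adjusted p = 0.0386). Without the 2 mice farthest from the median r was 0.451. Within single rounds of 8 mice r ran from -0.443 to 0.830, and after the mean of each round was subtracted it was 0.256, so the relation was smaller within rounds. Rounds held 27.7% and 49.2% of the variance of these clones, and the permutations moved mice between rounds. The permutation p therefore cannot separate a relation between the clones from shifts shared by a round. No p was computed after the subtraction. After the same subtraction the 10 pairs ran from -0.288 to 0.264. The files do not say which part of a transcript each clone covers, and the cause of the disagreement was not tested. A value for one clone therefore stands for that clone and less surely for its gene.

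**Figure D3:**
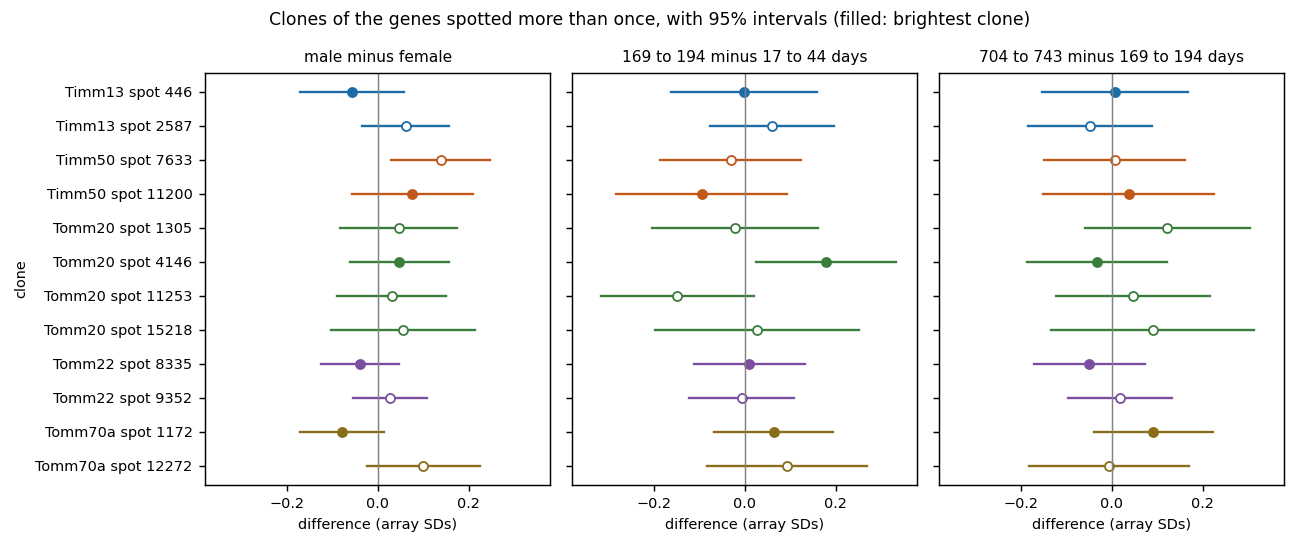
The differences (array SDs) of the 12 clones of the 5 genes spotted more than once are plotted with 95% limma intervals, with filled points for the brightest clone of a gene. The early steps of Tomm20 spots 4146 and 11253, 0.179 and -0.149, lie on opposite sides of zero.

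The variance of the member clones over the 40 mice was divided by round, age group and sex. Rounds are the 5 blocks of serial numbers in the sample titles, and every block held a couple of each age group; no label says what they stand for. The median share of variance between rounds was 14.1% in member clones and 18.4% over all clones, that between the 4 age groups 5.63% and 5.55%, and that between the sexes 1.43% and 1.25%. More groups give a larger share even with no difference: for independent normal values the median share would be 8.91% for 5 rounds, 6.28% for 4 age groups and 1.21% for 2 sexes. The member median was thus above that value for rounds and near it for age and sex. Several carriers and chaperones had large shares between rounds, among them Slc25a39 with 56.0%, Slc25a1 with 48.9% and Timm8a2 with 40.6%, while Slc25a20 had 2.17%. After age and sex were taken out, the SD between mice of one group had a median of 0.169 in member clones and 0.175 over all clones.

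**Figure D4:**
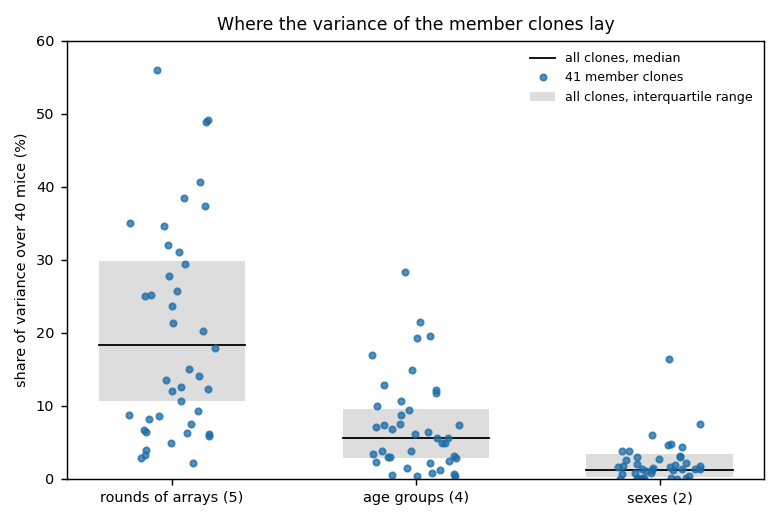
The share of the variance over 40 mice (%) that lay between the 5 rounds, the 4 age groups and the 2 sexes is plotted for each of the 41 member clones (points) over the interquartile range and median of all clones (grey bar and black line). The highest point between rounds is Slc25a39 at 56.0%, and the highest between age groups is Slc25a3 at 28.3%.

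Neighbouring pathways were counted on lists of genes, again 1 clone per gene. Of 27 other genes of import, assembly and processing, 19 were measured and 0 were called in any direction in the 3 comparisons of groups or in the slope. Their medians were 0.0127 for sex, 0.0484 for the early step (14 higher, 5 lower) and -0.0142 for the late step (7 higher, 12 lower). Of 20 other transport proteins of mitochondrial membranes, 12 were measured and 0 called, with medians of 0.0106, 0.0248 and -0.0256.

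Counted by brightest clones, enzymes that make or use what the carriers move held the one call among the neighbouring pathways. Of 21 such enzymes 15 were measured, and 1 was called by its brightest clone: Odc1, which turns ornithine into putrescine, was higher in males by 0.346 ± 0.0561 (adjusted p = 8.19e-04). A second Odc1 clone was called in the same direction (0.392). Dimmer clones of Me1, a malic enzyme, and Oat, which breaks down ornithine, were called at 0.310 and -0.223, while their brightest clones, at 0.0431 and -0.123, were not. Over all clones, 18 of 16896 (0.107%) were called for sex. The median of the list for sex was -0.0115, with 6 genes higher and 9 lower.

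The arrays of each set were alike, with mean correlations with the others of their set of 0.891 to 0.965 in set A and 0.916 to 0.976 in set B, and their number limits the precision of every value. Of 15 markers of the proximal tubule, the main tubule segment of the kidney cortex, 3 were measured, and Lrp2, Cubn and Miox ranked between the 71.4th and the 94.1th percentile of brightness in their set. Calb1 was the one marker of the loop and distal tubule and Slc4a1 that of the collecting duct. Of markers of tissues that could be carried along, 1 of 8 for fat, 4 of 7 for adrenal gland and 0 of 8 for skeletal muscle were measured. By their brightest clones, none of these markers passed in the comparisons of sex or age groups or in the slope. A second clone of Hsd3b1, an adrenal marker, was lower in males by a called difference of -0.280 (adjusted p = 0.00788), beside -0.176 for its brightest clone (adjusted p = 0.760). The lists of podocyte, endothelial, fibroblast and matrix, immune, erythroid and blood, and liver genes had 2 to 5 genes measured each and 0 called.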

How the data were processed

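The deposited values were z scores, and per the files each of the 80 arrays had mean 0 and SD 1. Per the labels' protocols the cDNA was labelled with radioactive phosphorus; how images were read and background was corrected, and on what scale, is not given in the sources used here. Each set of 8448 clones was quantile normalized here and fitted with limma 3.58.1 in R 4.3.3 (lmFit, contrasts.fit, eBayes) on 8 means of sex and age group, or on age in years and sex for the slope. Benjamini-Hochberg adjustment ran over both sets together, with a threshold of 0.05. The fit was tried on deviations from group means shuffled over the mice, with differences added between the sexes only. The shuffling broke up the rounds, and no difference between ages was tried. The outcome of this trial is not given here, so it does not show what differences could have been missed.

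Symbols came from the platform table; all 41 members matched RefSeq (GRCm38.p6) by gene identifier, and 0 symbols changed. Another 6 clones with several symbols, one of which matched, were left out. Values are given for members with the smallest p in each comparison and direction and for genes of known role; others are summarised by role. Members, roles, lists and the naming rule were chosen with earlier results of these data known. Clone correlations used 100000 permutations. Alternatives covered normalization, rounds, dim clones, array weights, outlying and youngest mice, variance moderation, the mismatched description and single mice. Couples are mice of one round; their signs are counted as a description and entered no test. No columns of values were left out (0).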

Additional observations from a re-analysis of the deposited data

Results flagged for a closer look

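In 17 of 144 groups of 5 mice, over the 18 genes described with full values, 1 mouse stood apart from the other 4 by Dixon's test. The nominal share is 5% for independent groups, but the same mice recur here and most of the genes were chosen by small p. The share over all clones was not computed, so the count cannot be read as particular to these genes. The cause was not tested.

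Among the carriers, male 17 to 44 days replicate 1 had 0.355 for Slc25a11, below 0.481 to 0.530 in the other 4. Slc25a17 was -1.10 in male 704 to 743 days replicate 1 and -0.968 in female 704 to 743 days replicate 1, where the others started at -0.680 and -0.536. Slc25a20 was 0.650 in male 169 to 194 days replicate 1 and 0.718 in male 476 to 499 days replicate 1, where the others ended at 0.409 and 0.420. Slc25a32 was -1.08 in female 169 to 194 days replicate 5 and -0.856 in female 704 to 743 days replicate 5. Slc25a48 was 0.501 in female 17 to 44 days replicate 1, above 0.247 to 0.302 in the other 4.

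Among the import genes, Timm17b was 1.19 in female 476 to 499 days replicate 4. Timm8b was 0.131 in male 169 to 194 days replicate 4, where the others started at 0.586, and 0.529 in female 476 to 499 days replicate 5. The brightest Tomm20 clone was -0.378 in female 169 to 194 days replicate 3, 0.0457 in male 476 to 499 days replicate 1 and 0.429 in male 704 to 743 days replicate 5. Tomm34 was -0.278 in male 17 to 44 days replicate 2. Tomm40 was -0.106 in male 476 to 499 days replicate 1 and 0.570 in female 704 to 743 days replicate 1, where the other 4 ended at -0.542 and -0.483.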

How the results depend on the processing

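The count of member clones called was 0 in all 6 comparisons under each of the 49 alternative settings, and the smallest adjusted p of a member in any of them was 0.522 (sex, with array weights). Over all clones, the count called for sex was 18 and became 11 without the mice of 17 to 21 days, 27 with array weights, and 16 to 20 with single mice left out. Counts of 0 became 1 for the early step without the mice of 17 to 21 days, 1 for the late step with array weights, 1 for the slope with ordinary least squares and 2 with array weights, and 1 for any age difference with array weights or without the mice with an outlying array; with single mice left out, the slope gave 0 to 1. Same-numbered mice were related on average, though not all deviated together: correlations averaged 0.165 within a round, from -0.167 to 0.634, and -0.0652 between rounds. The fit reported has no block, so its standard errors and p-values make no allowance for rounds. With the round as a replicate block, 2 clones were called for the slope and 1 for any age difference, and 0 members in any comparison. The limma adjusted p of the Slc25a48 early step was then 0.621, against 0.933 in the fit reported. The early step of Slc25a32, -0.0980, became 0.00815 without the mice with an outlying array. The causes were not tested. The medians over members for sex and for the late step crossed zero under some alternatives. They ran from -0.0152 to 0.00968 for sex and from -0.0167 to 0.0125 for the late step. The SDs over couples (0.0578 and 0.0405) are spreads of single couples and do not measure the error of these medians. The number of arrays and the unknown scale of the scores limit what differences could be seen, and 7 of the 41 member clones lay in the dimmest 25% by brightness rank.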
